A study of Mus musculus with 33 samples.

Results

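Tetraspanins are small membrane proteins that cross the membrane several times and gather integrins, immunoglobulin-family proteins and proteases into surface assemblies. The genes described here are Cd81 and 6 relatives, Cd9, Cd63, Cd82, Cd151, Cd37 and Cd53, chosen by symbol from the 31053 genes of 3 single-cell libraries of mouse colon mesenchyme, and all 7 had a row. CD81 is known, in the gut, as a surface protein by which PDGFRA-low fibroblasts can be sorted. The question was how far Cd81 transcripts mark fibroblasts that express Grem1, a secreted BMP antagonist of the crypt base niche, against glia, endothelium, mural cells and leukocytes, and how the relatives compare. CD9 takes part in sperm-egg fusion and cell adhesion, CD63 sits in late endosomes, lysosomes and the vesicles released from them, CD151 binds laminin receptors of the integrin family, CD82 is known as a suppressor of metastasis, and CD37 and CD53 are proteins of leukocytes.

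The series has 33 samples, of which the 3 single-cell libraries were used here. All came from the colon of untreated adult mice of both sexes, with the outer muscle layer removed, and 8000 cells were loaded per library. The whole mesenchyme library (1 library, genotype given as control) held cells sorted to lack EpCAM, found on epithelium, and CD45, found on leukocytes. The GFP-low libraries (2 replicates) came from PdgfraH2BeGFP mice, in which the Pdgfra locus drives a nuclear green fluorescent protein, and held unstained cells with a low level of that reporter. A replicate here is a library: the labels do not say whether the replicates came from separate or pooled animals.

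A unique molecular identifier (UMI) marks each captured transcript, and levels are given as CPM, the UMIs of a gene per 1000000 UMIs of all cells summed in a class and library. The libraries held 41863444, 39190629 and 52313765 UMIs, and 6793, 4834 and 6025 cells passed the filters, with medians of 4429, 6446 and 7025 UMIs (whole mesenchyme, GFP-low replicate 1, GFP-low replicate 2; the same order is kept below). Any 2 libraries shared 6 to 11 cell barcodes. Cells were clustered without the 7 genes, and all but 2 of 21 clusters were named by resemblance to fixed marker genes; the names below are short for that resemblance. Grem1 fibroblasts numbered 407, 2583 and 3605 cells, Pi16 fibroblasts (named after an adventitial marker) 34, 315 and 559, and Adamdec1 fibroblasts (named after a metalloprotease of lamina propria fibroblasts) 2585, 1174 and 1318. Subepithelial telocytes numbered 1587, 25 and 15. The whole mesenchyme library held 801 blood endothelial, 59 lymphatic endothelial, 65 glial, 85 pericyte and 156 smooth muscle or myofibroblast cells, of which the GFP-low libraries held 0 to 7 each, so these classes rest on 1 library and have no test. T or innate lymphoid cells numbered 10, 83 and 35, and all leukocytes together 22, 104 and 58. The unnamed cells were 992, 628 and 460. Grem1 fibroblasts came mostly from cluster 4 in whole mesenchyme, clusters 3 and 4 in GFP-low replicate 1 (led by Stc2, C3 and Cfb) and cluster 1 in GFP-low replicate 2 (led by Mt2, Myc and Il6). Clusters 3 and 4 had 4 and 5 of 9 Grem1-fibroblast markers raised but 5 and 7 of 9 Pi16-fibroblast markers. They were named by the markers among their leading genes. Grem1 stood at 2984 and 2427 CPM and Pi16 at 71.5 and 95.4 CPM in them, against 257 and 476.5 CPM in the Pi16 cluster.

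The 3 stretches of 250 bases just before a transcription start are shown to set Cd81 beside its nearest relative in expression, Cd9, and beside Cd53, which was found almost only in leukocytes. They are RefSeq sequences of build GRCm38.p6, written 5′ to 3′ along the gene. Capitals mark each GGGCGG, the GC box that Sp-family factors bind, which was searched on both strands.
Cd81: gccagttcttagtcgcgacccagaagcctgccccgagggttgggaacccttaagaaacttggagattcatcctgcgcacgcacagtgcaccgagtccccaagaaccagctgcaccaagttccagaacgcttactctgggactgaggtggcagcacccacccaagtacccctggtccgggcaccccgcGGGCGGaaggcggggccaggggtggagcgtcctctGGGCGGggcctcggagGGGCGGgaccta
Cd9: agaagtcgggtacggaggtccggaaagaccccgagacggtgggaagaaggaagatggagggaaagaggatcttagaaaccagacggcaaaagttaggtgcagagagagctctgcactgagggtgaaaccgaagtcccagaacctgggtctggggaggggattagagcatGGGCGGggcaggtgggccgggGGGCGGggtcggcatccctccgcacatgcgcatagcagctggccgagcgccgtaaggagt
Cd53: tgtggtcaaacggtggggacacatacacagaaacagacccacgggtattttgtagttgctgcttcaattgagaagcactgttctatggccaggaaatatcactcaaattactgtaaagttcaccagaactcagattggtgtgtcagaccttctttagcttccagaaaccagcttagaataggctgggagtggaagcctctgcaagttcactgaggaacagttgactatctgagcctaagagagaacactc
The Cd81 stretch (chr7:143052500-143052749, plus strand) held 3 GC boxes and 16 CG pairs at 65.6% G and C. The Cd9 stretch (chr6:125494761-125495010, minus strand) held 2 GC boxes and 16 CG pairs at 61.6%. The Cd53 stretch (chr3:106790150-106790399, minus strand) held no GC box and 2 CG pairs at 45.2%. Of the members not shown, Cd63, also broadly expressed, held no GC box and 6 CG pairs at 48.8%. Cd37, also a leukocyte gene, held 1 GC box and 8 CG pairs at 58.8%. The Cd63 stretch (chr10:128909095-128909344, plus strand) and the Cd37 stretch (chr7:45238840-45239089, minus strand) lie inside the gene spans given below. The 3 stretches shown end where the span of their gene begins, so the 2 sets are not placed alike. Over their several starts, Cd151 held 2 and 0 GC boxes, and Cd82 held 1, 1, 0 and 0. Of all 32851 RefSeq stretches of this length, 32.7% held a GC box, and the medians were 6 CG pairs and 52.4% G and C. None of the 3 stretches shown held TATAAA on either strand, against 12.4% of all stretches. A match is a description of these letters and not of binding.

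In whole mesenchyme, Cd81 was not highest in Grem1 fibroblasts. Cd81 (ENSMUSG00000037706, GRCm38 chromosome 7, 143052750 to 143067930) stood at 805 CPM in blood endothelium (exact Poisson 95% interval 771 to 840, 2083 UMIs) and at 802 CPM in glia (702 to 912, 232 UMIs). Pi16 fibroblasts followed with 578 CPM (489 to 678), and Grem1 fibroblasts with 476 CPM (450 to 504). The intervals of endothelium and glia overlapped each other, and so did those of the 2 fibroblast classes, while glia stood above Pi16 fibroblasts. Pericytes, the contractile cells of capillaries, held 193 CPM (146 to 250), and lymphatic endothelium 80.2 CPM (45.8 to 130). The lowest levels were 24.7 CPM (14.4 to 39.5) in smooth muscle or myofibroblasts, 21.5 CPM (19.3 to 23.9) in Adamdec1 fibroblasts and 14.8 CPM (12.0 to 18.0) in telocytes. In GFP-low replicate 1 the 25 telocytes held 62.6 CPM (31.3 to 112, 11 UMIs). These intervals cover counting error only.

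Put as ratios within that library, the Cd81 level of blood endothelium was 1.69 times that of Grem1 fibroblasts (counting interval 1.57 to 1.82), and that of glia 1.68 times (1.46 to 1.94). Pi16 fibroblasts stood at 1.21 times (1.02 to 1.44), a ratio that turned to 0.968 at clustering resolution 2 and to 0.731 in thinned cells. Grem1 fibroblasts stood above the other classes by 2.47-fold over pericytes (1.90 to 3.29), 5.94-fold over lymphatic endothelium (3.64 to 10.4) and 19.3-fold over smooth muscle or myofibroblasts (12.0 to 33.2). Over Adamdec1 fibroblasts the ratio was 22.1 (19.6 to 25.0), and over telocytes 32.2 (26.2 to 39.9). Against the 22 leukocytes of this library it was 4.80 (2.80 to 9.04, 13 leukocyte UMIs). By class it was 7.77 over T or innate lymphoid cells, 4.16 over B or plasma cells and 2.63 over macrophages or monocytes (1.03 to 9.69). These rest on 4, 5 and 4 UMIs. In the GFP-low libraries the ratio over macrophages or monocytes was 2.15 (1.43 to 3.39) and 3.46 (1.68 to 8.61), from 16 and 15 such cells. The 2 endothelial classes stood apart from each other, and lymphatic endothelium, with its 5 markers at 12740 summed CPM, held 16 Cd81 UMIs. The ratio over lymphatic endothelium was 15.4 in thinned cells. The ratio over pericytes rose to 4.78 when cells above 10% mitochondrial UMIs were left out.

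Fibroblast markers were measured in the endothelial and glial classes beside these levels. The 9 markers of Grem1 fibroblasts summed to 58.3 CPM in blood endothelium, with 3 at 0, and to 152 CPM in glia, with 5 at 0, against 3626 CPM in Grem1 fibroblasts. Markers of the classes themselves summed to 11900 CPM in blood endothelium and to 2966 CPM in glia. The 9 markers of Pi16 fibroblasts, a class also high in Cd81, summed to 538 CPM in blood endothelium (1 at 0) and 308 CPM in glia (3 at 0), against 5947 CPM in Pi16 fibroblasts. Adamdec1-fibroblast markers were present at 2470 and 2779 CPM in these classes, and that class held 21.5 CPM of Cd81. The part of fibroblast RNA in the endothelial and glial Cd81 levels was not tested.

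**Figure D1:**
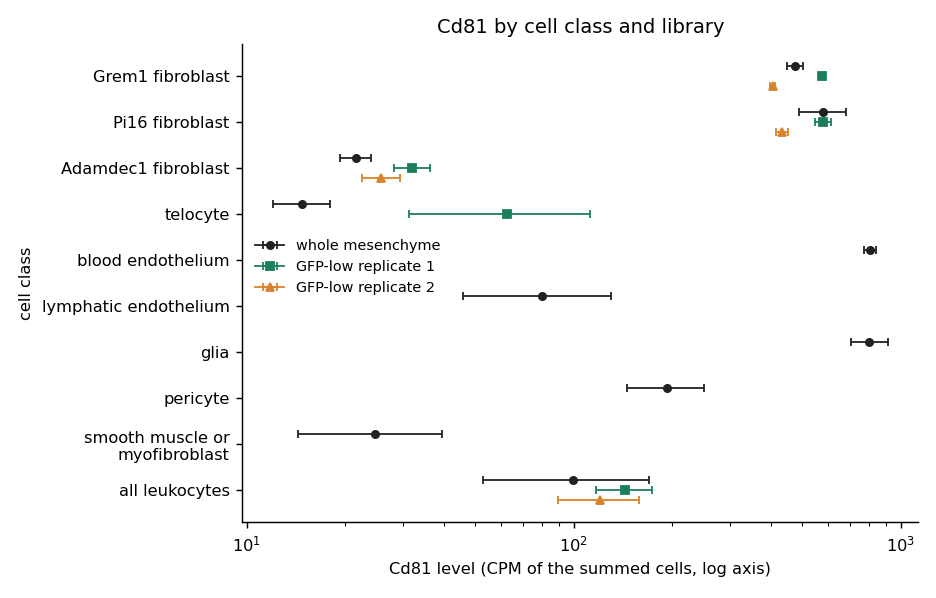
Cd81 level in CPM (log axis) for each cell class with at least 20 cells in a library; symbols are libraries and bars exact 95% Poisson intervals of the UMI count. Blood endothelium (805 CPM) and glia (802 CPM) lie to the right of Grem1 fibroblasts (476, 574 and 406 CPM), and Adamdec1 fibroblasts and whole-mesenchyme telocytes lie more than 10-fold to the left.

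Within the GFP-low libraries Cd81 separated the fibroblast classes in the same way. Grem1 fibroblasts held 476, 574 and 406 CPM, Pi16 fibroblasts 578, 578 and 433 CPM, and Adamdec1 fibroblasts 21.5, 32.1 and 25.7 CPM. The lowest Grem1 value was more than 10-fold above the highest Adamdec1 value, and the Grem1 to Adamdec1 ratio was 22.1, 17.9 and 15.8. Before normalisation, the 2 replicates differed from each other in the Grem1 class (intervals 563 to 586 and 398 to 413 CPM, for counting error only). Their cells lay in different clusters: cluster 1, which held most Grem1 fibroblasts of replicate 2, stood at 359 CPM there, and cluster 3, which held the most of replicate 1, at 609 CPM there and 566 CPM in replicate 2. Across the 5 Grem1 clusters the Cd81 level ran from 389 to 607 CPM in whole mesenchyme, and across the 4 Adamdec1 clusters from 7.63 to 48.5 CPM, so the ranges did not meet. Of the unnamed cells, cluster 5 (at 0.306 of the median depth) held 320, 540 and 256 CPM and cluster 9 held 20.0, 35.7 and 39.1 CPM. The study sorts its cells by CD81, and Cd81 was chosen with the fibroblast contrast known, so its difference between Grem1 and Adamdec1 fibroblasts is given as a description.

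Counted by cells, Cd81 transcripts reached far beyond Grem1 fibroblasts in the unselected library. Every cell was thinned to 1000 UMIs, since cells differ in depth. A Cd81 UMI was then found in 60.0% of glia (exact binomial interval 47.1 to 72.0%), 50.4% of blood endothelial cells (46.9 to 54.0%), 40.05% of Grem1 fibroblasts (35.2 to 45.0%) and 26.5% of the 34 Pi16 fibroblasts (12.9 to 44.4%). The share was 11.8% in pericytes, 3.39% in lymphatic endothelium, 3.20% in smooth muscle or myofibroblasts, 1.701% in telocytes and 1.59% in Adamdec1 fibroblasts. Unthinned, the shares were 83.1% in glia, 80.8% in endothelium, 88.0% in Grem1 fibroblasts and 7.19% in Adamdec1 fibroblasts, with median depths of 4052, 2903, 6490 and 6162 UMIs. No class is known to lack Cd81, and the shares of telocytes and Adamdec1 fibroblasts are the nearest to a background. Barcodes of 10 to 100 UMIs, which hold mainly free RNA, had Cd81 at 182, 686 and 330 CPM, above every Adamdec1-fibroblast value. In GFP-low replicate 1 they stood above Grem1 fibroblasts too, whose level was 0.838 times theirs (counting interval 0.799 to 0.878). Grem1 fibroblasts stood at 2.62 times their level in whole mesenchyme (2.12 to 3.28) and 1.23 times in GFP-low replicate 2 (1.08 to 1.4). The part of free RNA in the Cd81 levels and shares was not tested.

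Of the 762 whole-mesenchyme cells with a Cd81 UMI after thinning, 53.0% were blood endothelium (49.4 to 56.6%), a class that made up 11.8% of cells. Grem1 fibroblasts were 21.4% of them (18.5 to 24.5%), against 5.99% of cells, and Pi16 fibroblasts 1.18%. Glia were 5.12%, Adamdec1 fibroblasts 5.38%, telocytes 3.54% and unnamed cells 8.005%. Within fibroblasts and telocytes alone, which is nearest to a PDGFRA gate, 240 cells had a Cd81 UMI and 67.9% of them were Grem1 fibroblasts (61.6 to 73.8%), or 71.7% with Pi16 fibroblasts. In the GFP-low libraries, 73.3% and 79.9% of all Cd81-positive cells were Grem1 fibroblasts, and 82.2% and 91.6% were Grem1 or Pi16 fibroblasts. Within fibroblasts and telocytes the latter shares were 96.8% and 98.1%. The sort sets these shares in part, because the GFP gate removes endothelium and glia. The division between Grem1 and Pi16 fibroblasts depends on the clustering: at resolution 0.5 the share of Grem1 fibroblasts was 7.61%, 1.77% and 85.3%, and with both classes together 84.2% in GFP-low replicate 1. Pooling the classes does not settle it: their joint share was 69.7% in that library and 16.7% in whole mesenchyme at resolution 2, and 54.5% and 13.9% with clustering on all genes. In these 2 settings 975 and 1598 cells of GFP-low replicate 1 were unnamed, against 628 in the main one. Over all libraries the unnamed cells then held Grem1 at 2706 and 2502 CPM and Cd81 at 489 and 478 CPM. The main values were 862 and 259 CPM, so the lower joint shares go with Grem1-rich cells left without a name.

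**Figure D2:**
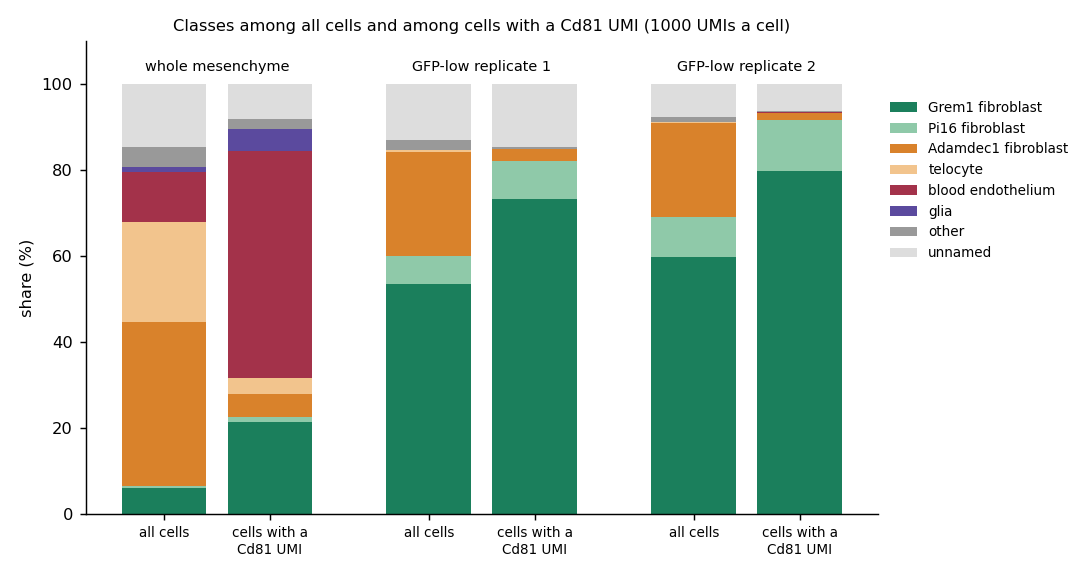
Share of each cell class (%) among all cells and among cells with a Cd81 UMI, per library, after thinning each cell to 1000 UMIs. In whole mesenchyme the largest part of the Cd81-positive bar is blood endothelium (53.0%), and in the GFP-low libraries Grem1 fibroblasts (73.3% and 79.9%).

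Within Grem1 fibroblasts, a Grem1 UMI was no more frequent in cells with a Cd81 UMI than in cells without. Grem1 itself had a part in the clustering and naming, so its shares inside these classes are set in part by how the classes were made. In thinned cells a Grem1 UMI was present in 72.4% of those with a Cd81 UMI and in 80.3% of those without in whole mesenchyme, in 67.8% and 70.6% in GFP-low replicate 1, and in 72.4% and 74.8% in GFP-low replicate 2. In Adamdec1 fibroblasts the shares were 56.1% of 41 Cd81-positive cells and 15.4% of the other cells in whole mesenchyme, 51.2% and 29.0% in GFP-low replicate 1, and 30.8% and 21.8% in GFP-low replicate 2. The value of 30.8% rests on 26 cells (14.3 to 51.8%). Pi16 fibroblasts had 44.4% of 9 and 20% of 25 cells in whole mesenchyme. Their shares were 4.41% and 8.94% in GFP-low replicate 1, and 16.8% and 19.7% in GFP-low replicate 2. The part of free RNA and of cells caught together in the Adamdec1 shares was not tested; the doublet caller marked 2 or 3 cells a library and so had not worked.

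Cd9 (ENSMUSG00000030342, chromosome 6, 125460266 to 125494760) was, like Cd81, higher in Grem1 and Pi16 than in Adamdec1 fibroblasts. Outside these 3 classes its order was another one. Glia stood highest at 1362 CPM (1231 to 1503), 2.92 times Grem1 fibroblasts, and lymphatic endothelium, low in Cd81, came next at 1188 CPM (1041 to 1349). Grem1 fibroblasts held 466, 441 and 339 CPM, smooth muscle or myofibroblasts 427 CPM and blood endothelium 383 CPM, and the first 2 of these overlapped in whole mesenchyme. Telocytes held 211 CPM there, Adamdec1 fibroblasts 130, 141 and 90.5 CPM, and all leukocytes 30.5, 121 and 67.4 CPM. In GFP-low replicate 1 the 25 telocytes held 484 CPM of Cd9 (85 UMIs). The Grem1 to telocyte ratio was 0.912 there (counting interval 0.736 to 1.14), against 9.17 for Cd81. In every library the Grem1 value was more than 3-fold above the Adamdec1 value.

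Cd151 (ENSMUSG00000025510, chromosome 7, 141467362 to 141471481) was the most even of the 5 broadly expressed genes. In whole mesenchyme it ran from 173 CPM in glia and 171 CPM in blood endothelium to 76.4 CPM in telocytes and 46.1 CPM in Adamdec1 fibroblasts. The intervals of the first 6 classes each met the next. Grem1 fibroblasts held 104, 105 and 68.0 CPM. In GFP-low replicate 1 the 25 telocytes held 176.5 CPM of Cd151 (31 UMIs), with a Grem1 to telocyte ratio of 0.595 (0.418 to 0.879). Cd63 (ENSMUSG00000025351, chromosome 10, 128896231 to 128912822) was lowest in blood endothelium, a class high in Cd81: 167 CPM there, against 841 CPM in Grem1 fibroblasts, a ratio of 5.03 (4.53 to 5.59). Telocytes (1033 CPM) and Adamdec1 fibroblasts (913 CPM) stood above Grem1 fibroblasts. In the GFP-low libraries Adamdec1 fibroblasts held 1267 and 1222 CPM and Grem1 fibroblasts 942 and 891 CPM.

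Cd82 (ENSMUSG00000027215, chromosome 2, 93419102 to 93462950) ran against Cd81. Grem1 fibroblasts held 22.2, 21.1 and 16.8 CPM and Pi16 fibroblasts 11.6, 5.57 and 1.64 CPM (3, 12 and 8 UMIs), while Adamdec1 fibroblasts held 76.9, 85.8 and 63.3 CPM. Pericytes (122 CPM), telocytes (85.8 CPM) and lymphatic endothelium (80.2 CPM) were high as well, and blood endothelium was low at 18.9 CPM. T or innate lymphoid cells held 187 and 148 CPM in the GFP-low libraries. No Cd82 value of Grem1 or Pi16 fibroblasts reached that of any Adamdec1 sum.

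Cd37 (ENSMUSG00000030798, chromosome 7, 45233632 to 45239340) and Cd53 (ENSMUSG00000040747, chromosome 3, 106758861 to 106790149) were leukocyte genes here too. Leukocytes held 122, 149 and 77.0 CPM of Cd37 and 221, 174 and 132 CPM of Cd53. Macrophages or monocytes held 452, 430 and 268 CPM of Cd37 from 7, 16 and 15 cells. In Grem1 fibroblasts there were 1, 7 and 13 Cd37 UMIs (0.397, 0.409 and 0.4999 CPM) and 1, 1 and 1 Cd53 UMIs. Neither gene had a UMI in the 65 glia, the 85 pericytes or the 156 smooth muscle or myofibroblasts, which allows up to 10.4, 10.1 and 4.35 CPM for these classes, and endothelium had 1 Cd53 UMI in all.

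**Figure D3:**
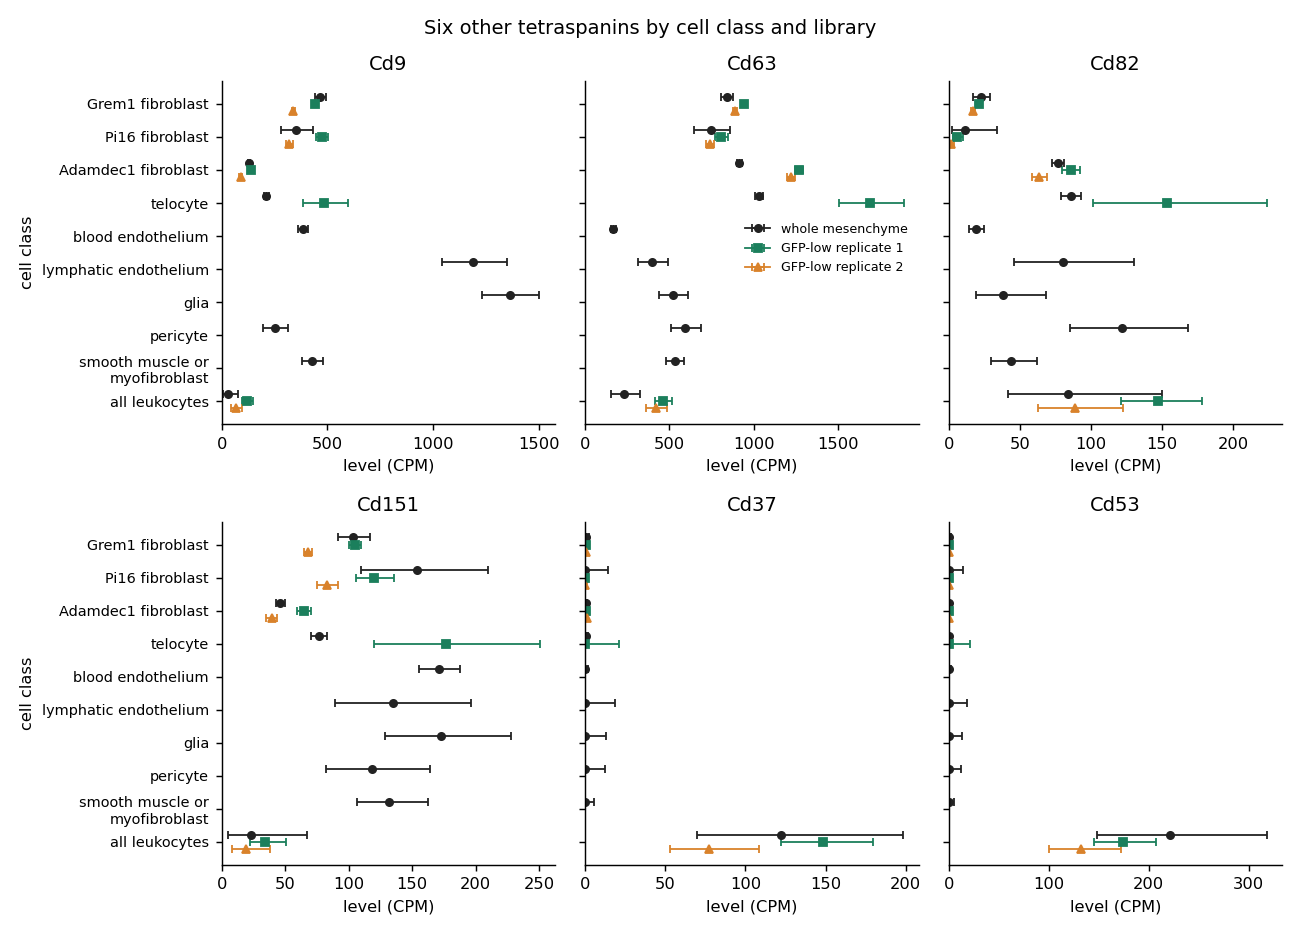
Level in CPM of Cd9, Cd63, Cd82, Cd151, Cd37 and Cd53 by cell class (at least 20 cells) and library, with exact 95% Poisson intervals. Cd9 is highest in glia and lymphatic endothelium, Cd63 lowest in blood endothelium, Cd82 lowest in Pi16 fibroblasts, and Cd37 and Cd53 stand far from 0 only in leukocytes.

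How narrowly each gene was spread over the 9 classes of whole mesenchyme was summarised by tau, the mean shortfall from the highest class, which is 0 for equal levels and 1 for a gene of a single class. Tau was 0.688 for Cd9, 0.660 for Cd81, 0.612 for Cd82, 0.430 for Cd63 and 0.322 for Cd151. Of 17 other tetraspanins with enough UMIs for the index, Tspan8 (0.956), Tspan18 (0.938) and Tspan15 (0.915) had the highest values, with peaks of 89.6 CPM in blood endothelium, 281 CPM in lymphatic endothelium and 166 CPM in glia. Tspan13 (tau 0.881) peaked in blood endothelium at 262 CPM, and Tspan31 (0.198) was the most even. Blood endothelium was the highest class for 5 of the 17 and Grem1 fibroblasts for none.

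**Figure D4:**
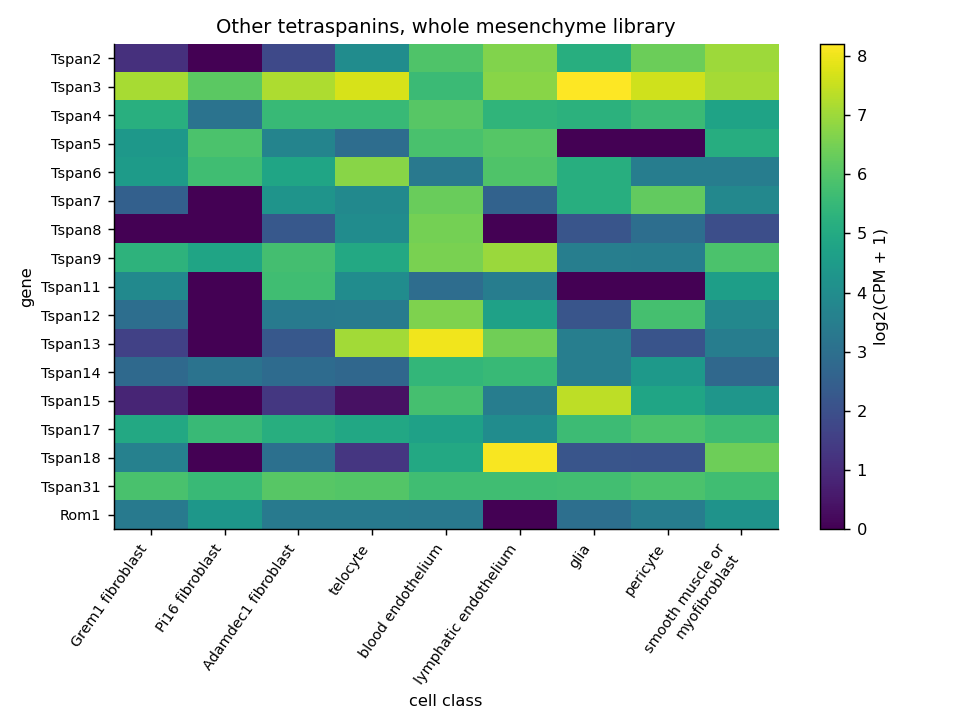
Levels of 17 other tetraspanins in the 9 classes of the whole mesenchyme library, as log2(CPM + 1) in colour. Tspan13 is brightest in blood endothelium, Tspan18 in lymphatic endothelium and Tspan15 in glia, and the column of Grem1 fibroblasts holds no gene's highest value.

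The first of 3 tests compared Grem1 with Adamdec1 fibroblasts in all 3 libraries, over genes that had no part in the clustering. Cd9 and Cd151 were higher in Grem1 fibroblasts and Cd82 lower. Cd9 stood at 463, 431 and 383 against 129, 128 and 91.4 normalised CPM, a log2 difference of 1.89 (SE 0.11, edgeR quasi-likelihood test, adjusted p = 3.29e-07). Cd151 stood at 102.9, 102.6 and 76.9 against 45.9, 58.8 and 39.7 normalised CPM, a log2 difference of 0.96 (SE 0.10, adjusted p = 2.52e-05). Cd82 stood at 22.1, 20.6 and 19.0 against 76.5, 77.8 and 64.0 normalised CPM, a log2 difference of -1.83 (SE 0.10, adjusted p = 1.86e-07). All 3 went the same way in every library, as did 1769 of the 1800 genes called. Cd63 was lower in each library (835, 920 and 1008 against 909, 1149 and 1234 normalised CPM) and did not pass, at a log2 difference of -0.25 (SE 0.11, adjusted p = 0.121). It passed without the whole mesenchyme library, at -0.29 (adjusted p = 0.0165). Of 4 members tested, Cd81 set aside, 2 were therefore higher and 1 lower, against 29.1% of all 6182 genes called, 14.3% higher and 14.8% lower, and Cd37 and Cd53 had too few counts. The median log2 difference was 0.36 over these 4 and 0.00 over all genes. The clusters came from the same cells as the test, so its p-values describe classes already made to differ.

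The second test compared Grem1 with Pi16 fibroblasts. Cd81 did not pass: 466, 544 and 449 against 559, 541 and 467 normalised CPM, a log2 difference of -0.08 (SE 0.09, adjusted p = 0.591). Pi16 fibroblasts were higher in whole mesenchyme and GFP-low replicate 2 and the 2 values nearly equal in GFP-low replicate 1, and a p that misses the threshold does not show equal levels. Cd9 (0.11, SE 0.10, adjusted p = 0.517) and Cd151 (-0.26, SE 0.09, adjusted p = 0.0502) did not pass either. Cd82 was higher in Grem1 fibroblasts, at 21.8, 19.9 and 18.6 against 11.2, 5.22 and 1.77 normalised CPM, with a log2 difference of 2.53 (SE 0.28, adjusted p = 1.95e-06). Cd63, with 824, 892 and 987 against 723, 755 and 797 normalised CPM, was higher by 0.25 (SE 0.08, adjusted p = 0.0396). Cd82 passed the filter only through its Grem1 counts, with 3, 12 and 8 UMIs in Pi16 fibroblasts, so its call supports nothing. With Cd82 counted, 2 of 5 members were called, beside 20.1% of the 5327 genes called, 11.2% higher and 8.94% lower. The comparison depends on how the clustering divides these fibroblasts: at resolution 0.5 the Pi16 class took in 3403 cells with Grem1 at 2338 CPM, and edgeR called no gene in either direction (233 and 177 at an unadjusted p under 0.05; DESeq2 was run on the main classes only). The Cd82 difference was then 0.26 (adjusted p = 0.791). The Cd63 call was also lost without GFP-low replicate 1 (0.25, adjusted p = 0.191) or GFP-low replicate 2 (0.22, adjusted p = 0.441).

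The third test compared Grem1 fibroblasts with T or innate lymphoid cells in the 2 GFP-low libraries, the only leukocyte class with 20 cells in each. The 5 broadly expressed members passed. Cd81 was higher in Grem1 fibroblasts, at 566 and 470 against 121 and 119 normalised CPM, with a log2 difference of 2.12 (edgeR, SE 0.23, adjusted p = 1.01e-18). With 2 libraries, the p-values of this test rest mainly on the spread that edgeR estimated over all genes tested, not on that of each gene. Cd9 (1.89, SE 0.23), Cd151 (1.30, SE 0.28, adjusted p = 4.17e-05) and Cd63 (0.89, SE 0.21, adjusted p = 2.93e-04) were higher as well. Cd82 was lower, at 20.8 and 19.4 against 173 and 140 normalised CPM, with a log2 difference of -2.97 (SE 0.23). Cd37 and Cd53 entered the test through the lymphoid counts alone, so they had to differ and their calls support nothing. The lymphoid to Grem1-fibroblast ratio of Cd37 was 316 (counting interval 145 to 814) and 130 (57.9 to 298), and Cd53, with 1 UMI in each Grem1 sum, had 88 and 39 lymphoid UMIs and ratios of 2820 (493 to 113000) and 4410 (746 to 179000). The background was 19.9% of 6091 genes called, 9.97% higher and 9.92% lower. The lymphoid cells also held Adamdec1-fibroblast markers at 5425 and 7072 summed CPM and Grem1-fibroblast markers at 828 and 982 CPM, 4 of 9 of the latter at 0, and the part of such RNA in their Cd81 level was not tested. Without the library as a block, the calls of Cd151 (adjusted p = 0.0573) and Cd63 (adjusted p = 0.188) were not made. The thinned share of lymphoid cells with a Cd81 UMI was 4.82% (1.33 to 11.9%) and 8.57% (1.80 to 23.1%), beside 3.49% and 1.97% of Adamdec1 fibroblasts.

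**Figure D5:**
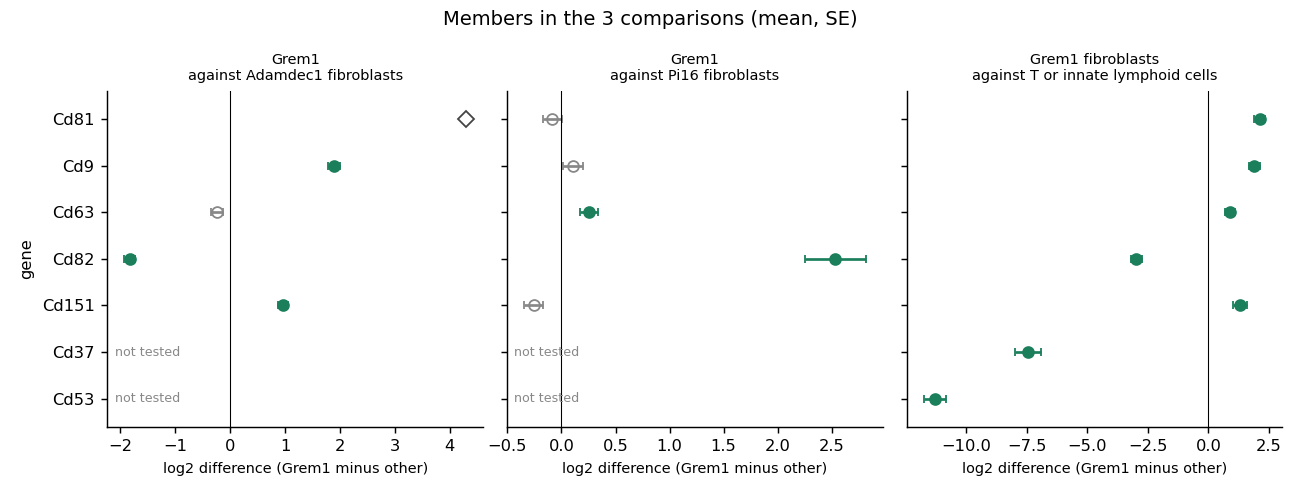
Log2 difference (Grem1 fibroblasts minus the other class) of the 7 genes in the 3 comparisons; filled points passed edgeR's test at an adjusted p of 0.05, open circles did not, bars are the SE worked back from the test's F statistic, and the diamond is a description without a test. Cd81, Cd9 and Cd151 lie right of 0 against Adamdec1 fibroblasts and lymphoid cells and near 0 against Pi16 fibroblasts, and the fitted values of Cd37 and Cd53 rest on few fibroblast UMIs.

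Of the other 24 tetraspanins, 16 had the counts for a test between Grem1 and Adamdec1 fibroblasts. In Grem1 fibroblasts 2 were higher, 8 lower and 6 did not pass (median log2 difference -0.34), beside 14.3% of all genes higher and 14.8% lower. Tspan5, a partner of the protease ADAM10, was higher by 0.88 (SE 0.12, adjusted p = 2.79e-04) and Tspan18 by 0.54 (SE 0.16, adjusted p = 0.0287). Tspan7 was lower, with a log2 difference of -3.33 (SE 0.22, adjusted p = 1.09e-06). Tspan8 (0, 1 and 3 against 59, 29 and 26 UMIs), Tspan13 (5, 3 and 2 against 59, 26 and 16) and Tspan2 (3, 6 and 2 against 40, 11 and 17) are 3 of the 8, and they passed the filter on low counts only through Adamdec1 fibroblasts, so they had to differ and their calls support nothing. The call of Tspan18 was lost without GFP-low replicate 1 (0.44, adjusted p = 0.196) and that of Tspan2 without GFP-low replicate 2 (adjusted p = 0.0745). Against Pi16 fibroblasts, with a median of 0.16, 4 of 12 were higher, beside 11.2% of all genes (Tspan11 on 35, 323 and 269 against 0, 2 and 13 UMIs, tested through its Grem1 counts alone, Tspan9 by 0.67, Tspan3 by 0.44 and Tspan4 by 0.40) and Tspan5 was lower (log2 difference -1.30, SE 0.12, adjusted p = 1.16e-07). Of these, Tspan9 was not called without GFP-low replicate 1 (0.47, adjusted p = 0.123), nor Tspan3 (0.48, adjusted p = 0.141) and Tspan4 (0.27, adjusted p = 0.606) without GFP-low replicate 2. At resolution 0.5 none of these 5 was called, and Tspan11 (-0.22), Tspan9 (-0.10), Tspan3 (-0.26) and Tspan5 (0.031) changed sign. Against lymphoid cells, Tspan4 (1.21), Tspan17 (1.06), Tspan9 (0.94) and Tspan3 (0.81) were higher among 14 tested, beside 9.97% of all genes, and Tspan13, with 3 and 2 against 41 and 13 UMIs, entered through the lymphoid counts alone.

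Among 20 membrane proteins known to bind tetraspanins or to be arranged by them, 17 were tested between Grem1 and Adamdec1 fibroblasts, and 3 were higher, 9 lower and 5 did not pass (median log2 difference -0.41), beside 14.3% of all genes higher and 14.8% lower. The immunoglobulin-family proteins IGSF8 and PTGFRN bind CD81 and CD9 directly. Igsf8, with 71.0, 107 and 104 against 33.3, 53.0 and 44.1 normalised CPM, was higher by 1.12 (SE 0.09, adjusted p = 5.25e-06), and Ptgfrn by 0.30 (SE 0.10, adjusted p = 0.0467). Cd47, a signal that restrains phagocytes, was higher by 0.40 (SE 0.10). The lower genes held Cd36 (4, 0 and 1 against 156, 26 and 57 UMIs), Cldn1 (2, 16 and 31 against 124, 32 and 37) and the integrin subunits Itga4 (4, 7 and 8 against 215, 165 and 157) and Itga6 (0, 5 and 4 against 64, 10 and 32). These 4 of the 9 passed the filter only through Adamdec1 fibroblasts and so had to differ. Ptgfrn was not called without GFP-low replicate 1 (0.27, adjusted p = 0.287), nor Cd47 without either GFP-low replicate (0.44, adjusted p = 0.108, and 0.39, adjusted p = 0.0704). Against Pi16 fibroblasts, 4 of 12 were higher and 4 lower (median -0.12), beside 11.2% and 8.94% of all genes. Ifitm1, of the interferon-induced proteins that associate with CD81 and CD9, stood at 401, 436 and 425 against 93.2, 33.9 and 49.3 normalised CPM, higher by 3.19 (SE 0.15, adjusted p = 3.98e-11), with Ifitm3 at 0.61, Igsf3 at 0.51 and Ifitm2 at 0.48. Cd44, the hyaluronan receptor, was lower (log2 difference -0.997, SE 0.09), and Igsf8, Ptgfrn and Adam10 by -0.28, -0.25 and -0.34. The last 3 and Igsf3 were not called without GFP-low replicate 1 (adjusted p = 0.110, 0.395, 0.148 and 0.103) or GFP-low replicate 2 (0.291, 0.624, 0.3999 and 0.136), nor Ifitm2 without GFP-low replicate 2 (0.44, adjusted p = 0.0634). At resolution 0.5 none of these 8 was called, and Ifitm1 (-0.32), Ifitm3 (-0.33), Ifitm2 (-0.28), Cd44 (0.46) and Ptgfrn (0.083) changed sign. Against lymphoid cells, 6 of 16 were higher, with Igsf8 (1.28), Ifitm3 (1.05), Ptgfrn (0.82) and Ifitm2 (0.75), beside 9.97% of all genes. In Grem1 fibroblasts 4 were lower, beside 9.92%: Itga4 (7 and 8 against 43 and 17 UMIs, tested through the lymphoid counts alone), Cd44 (-1.01), Adam10 (-0.76) and Ifitm1 (-0.75), the last at 0.019 in thinned cells.

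Of 14 genes of vesicle sorting, the machinery that loads CD63 and CD81 into released vesicles, 12 were tested between Grem1 and Adamdec1 fibroblasts, and 4 were higher, 1 lower and 7 did not pass (median log2 difference 0.07), beside 14.3% of all genes higher and 14.8% lower. Sdcbp, which encodes the adaptor syntenin, stood at 266, 237 and 296 against 172, 153 and 165 normalised CPM and was higher by 0.70 (SE 0.10, adjusted p = 2.81e-04). Pdcd6ip, its partner ALIX, was higher by 0.40 (SE 0.09), Stam by 0.39 (SE 0.11) and Flot2 by 0.30 (SE 0.09). The lower gene, Rab27b (1, 1 and 0 against 35, 14 and 16 UMIs), passed the filter only through Adamdec1 fibroblasts and so had to differ. The calls of Stam and Flot2 were lost without either GFP-low replicate (0.45 and 0.27 without the first, adjusted p = 0.0543 and 0.250; 0.41 and 0.33 without the second, adjusted p = 0.0696 and 0.0870). Against Pi16 fibroblasts, Lamp2 was higher (0.31) and Pdcd6ip (-0.55), Stam (-0.48) and Flot1 (-0.30) were lower among 11 tested, beside 11.2% and 8.94% of all genes. Lamp2, Stam and Flot1 were not called without GFP-low replicate 1 (adjusted p = 0.198, 0.0887 and 0.323), and none of the 4 without GFP-low replicate 2 (adjusted p from 0.116 to 0.293). At resolution 0.5 none of the 4 was called, and Pdcd6ip (0.012) and Stam (0.19) changed sign. Against lymphoid cells, Stam, Sdcbp, Lamp1 and Lamp2 were higher, by 1.36, 1.04, 0.99 and 0.54, beside 9.97% of all genes, among 11 tested.

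The genes whose level followed Cd81 most closely over 18 sums of class and library were Plat (Pearson r = 0.817), Anxa3 (0.808), Ebf1 (0.804), Plcb4 (0.7996) and Prss23 (0.798), among 3862 genes with at least 100 CPM in a sum. Plat encodes tissue plasminogen activator and Ebf1 a transcription factor. Plat stood at 112 CPM in blood endothelium, 214 CPM in glia, 130, 159 and 140 CPM in Grem1 fibroblasts and 44.3, 40.2 and 33.2 CPM in Adamdec1 fibroblasts. Ebf1, in contrast to Cd81, was higher in pericytes (1236 CPM) than in glia (44.9 CPM). Anxa3, Plcb4 and Prss23 had a part in the clustering. Of the relatives, Cd9 ranked 131st (r = 0.492), Cd151 196th (0.450), and Cd63 (-0.399) and Cd82 (-0.623) ran against Cd81. The sums share libraries and depth, so the correlations are descriptions.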

How the data were processed

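The 3 single-cell libraries of the series were used, and its other 30 samples were not used here. The deposited values are raw UMI counts per gene and barcode, which the authors obtained through Cell Ranger 3.0.2 with build mm10, per the submitters' processing notes. A barcode counted as a cell from 1000 UMIs and 500 genes on, with mitochondrial UMIs up to 20%.

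The genes, without the 7 described ones, were divided at random. One part (15572 genes) gave 2000 variable genes, 30 components, 15 neighbours and Leiden clusters at resolution 1 (scanpy 1.11.5). The other (15481 genes, the 7 and the lists among them) was kept for the tests. A cluster was named from 129 fixed markers of 18 types, where at least 3 stood 1.5-fold above the mean of the other clusters at 20 CPM or more, and clusters with fewer markers, or very shallow and led by no marker, stayed unnamed. The type with the most markers among the cluster's 10 leading genes came first, and then the type with the largest share of its markers raised. Scrublet scores marked 2, 3 and 3 cells, too few to have worked, so no doublets were removed, and an alternative left out the top 6%.

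UMIs were summed per class and library (at least 20 cells) and tested with edgeR 4.0.16 (filterByExpr, TMM, quasi-likelihood fit, Benjamini-Hochberg adjustment, threshold 0.05), with the library as a block because both classes of a comparison came from the same libraries. Normalised CPM are CPM after TMM. Each SE was worked back from the quasi-likelihood test, as the absolute log2 difference over the square root of its F statistic, and is not a spread measured over libraries. Cd81 between Grem1 and Adamdec1 fibroblasts was not tested. Classes of 1 library have exact 95% intervals of counting error only, and a count of 0 allows up to 3 counts. Depth was 39190629 to 52313765 UMIs a library. No source says that libraries are separate animals, so p-values measure the spread between these libraries, which may be technical. The quasi-likelihood fit moderates that spread over all genes tested, so a small p is not a measure of the gene's own spread alone.

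For each list, up to 4 genes per direction were named, those with the largest difference among those called. Alternatives were DESeq2 1.42.0 and its size factors, no filter, no block, resolution 0.5 and 2, another random part, all genes, other cell filters, thinning and leaving out each library. The members and lists were chosen with earlier results of these data known. Sequences are from RefSeq GRCm38.p6, the assembly of mm10, and all 7 symbols matched.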

Additional observations from a re-analysis of the deposited data

How the results depend on the processing

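In all 8 alternatives the order of Cd81 levels against Grem1 fibroblasts held for each class compared but Pi16 fibroblasts, which reversed in 2. For glia and for smooth muscle or myofibroblasts the ratio also stayed within its main counting interval. The ratios and levels that left theirs follow. Blood endothelium over Grem1 fibroblasts became 1.57 (resolution 2), 1.90 (top doublet scores removed) and 1.54 (thinned). Pi16 over Grem1 fibroblasts became 1.01 (resolution 0.5), 0.968 (resolution 2) and 0.731 (thinned). Grem1 over Adamdec1 fibroblasts became 26.9 (doublet scores) and 30.1 (thinned), over telocytes 44.1 (doublet scores), over pericytes 4.78 (at most 10% mitochondrial) and over lymphatic endothelium 15.4 (thinned). The Grem1-fibroblast level became 512 (resolution 2) and 523 CPM (thinned) in whole mesenchyme and 461 (resolution 0.5), 609 (resolution 2) and 544 CPM (all genes) in GFP-low replicate 1.

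The Grem1 share of Cd81-positive cells in whole mesenchyme became 7.61% (resolution 0.5), 9.97% (resolution 2), 5.12% (all genes) and 26.6% (at least 2000 UMIs). In GFP-low replicate 1 it became 1.77%, 36.2%, 2.69% and 76.3% under the same settings and 77.9% (at most 10% mitochondrial). In GFP-low replicate 2 it became 85.3%, 75.6%, 77.0% and 84.0%, and 77.0% with another random part. The share of Grem1 and Pi16 fibroblasts together became 16.7% (resolution 2), 13.9% (all genes), 28.1% (at least 2000 UMIs) and 26.1% (not thinned) in whole mesenchyme. It became 84.2% (resolution 0.5), 69.7% (resolution 2), 54.5% (all genes), 85.5% (at least 2000 UMIs) and 87.0% (at most 10% mitochondrial) in GFP-low replicate 1, and 90.0% (all genes) and 96.4% (at least 2000 UMIs) in GFP-low replicate 2.

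Counts of called genes moved as follows. Without the replicate block, edgeR called 348 genes higher and 428 lower against Adamdec1 fibroblasts, 117 and 71 against Pi16 fibroblasts, and 133 and 321 against lymphoid cells. In thinned cells the counts were 433 and 438, 165 and 115, and 279 and 167. With clustering on all genes, 546 were higher against Adamdec1 fibroblasts, 4 higher and 4 lower against Pi16 fibroblasts, and 375 higher against lymphoid cells. DESeq2 called 270 and 216 against Pi16 fibroblasts and 230 and 354 against lymphoid cells. At resolution 0.5 the counts were 0 and 0 against Pi16 fibroblasts and 235 and 298 against lymphoid cells, and at resolution 2 326 were higher against Pi16 fibroblasts. Leaving out 1 library gave 617 to 1192 higher and 690 to 1086 lower against Adamdec1 fibroblasts, and 224 to 740 higher (fewest without GFP-low replicate 2) and 169 to 648 lower against Pi16 fibroblasts, with 302 lower without GFP-low replicate 1. The lymphoid comparison has 2 libraries, so leaving out 1 would leave no spread to test and was not run.

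Against Pi16 fibroblasts, resolution 0.5 reversed the log2 differences of Cd9 (-0.31), Cd63 (-0.14), Tspan11 (-0.22), Tspan9 (-0.10), Tspan3 (-0.26), Tspan5 (0.031), Ifitm1 (-0.32), Ifitm3 (-0.33), Ifitm2 (-0.28), Cd44 (0.46), Ptgfrn (0.083), Pdcd6ip (0.012) and Stam (0.19). There Cd81 reversed at resolution 2 (0.0093) and in thinned cells (0.15), and Cd9 in thinned cells (-0.012). Ifitm1 reversed against lymphoid cells in thinned cells (0.019). Of the members, 8 values against Pi16 fibroblasts and 4 against lymphoid cells lost a call, and none against Adamdec1 fibroblasts did; of the other named genes, 41, 89 and 63 values lost a call against Adamdec1 fibroblasts, Pi16 fibroblasts and lymphoid cells. Thinning keeps fewer UMIs; the other causes were not tested. Glia, pericytes and lymphatic endothelium rest on 59 to 85 cells of 1 library, which limits their precision.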
